A study of Mus musculus with 10 samples.

Results

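Carbonic anhydrases are zinc enzymes that interconvert carbon dioxide and water with bicarbonate and protons. In brain tissue they set the speed at which cells and the space around them buffer acid, supply bicarbonate to transporters, and shape the bicarbonate current through GABA-A receptors. The family has cytosolic, mitochondrial and membrane-bound enzymes, and also carbonic anhydrase-related proteins that have the same fold but lack histidines that hold the zinc. The related proteins act as binding partners: the Car8 protein binds the inositol trisphosphate receptor of intracellular calcium stores, and the Car10 and Car11 proteins are secreted ligands of neurexins, which are adhesion proteins of the presynaptic membrane.

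The genes described here are 10 carbonic anhydrase genes of the mouse (Car2, Car4, Car5b, Car7, Car8, Car10, Car11, Car12, Car13 and Car14) among 47632 gene rows of a table of striatal RNA levels. They were chosen by name, and the family was picked on a measured value, the lower level of Car11 in R6/2 striatum. The comparison of R6/2 with control therefore entered the choice, and for the 10 genes it is given as levels, log2 changes and calls, without p-values. The samples are striatum from 5 R6/2 hemizygous mouse samples and 5 isogenic wild-type control samples, all taken at 11 weeks of age. R6/2 mice carry a transgene with the first exon of human huntingtin and an expanded CAG repeat under the human huntingtin promoter, and model Huntington's disease, in which the striatum degenerates. Expression of the transgene was not analysed here, and the grouping rests on the labels. Whether each library is a different animal is not stated, so p-values cover the spread of these libraries alone, part of which may be technical.

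Values are FPKM, fragments scaled for transcript length and library size, and levels are compared between genes on that scale alone. RNA was amplified before the libraries were made, and unequal amplification of genes was not tested. Orders, sums and shares of genes given below carry that limit. The table holds no counts, but its lowest values fall on steps of whole fragments. From these steps the library with the most fragments (R6/2 1) had 2.01 times as many as the one with the fewest (R6/2 2), and the controls lay between 1.04 and 1.48 times. The absolute depth is unknown. Striatal origin was visible in the markers of spiny projection neurons, the output neurons of the striatum. All 10 were called lower in R6/2, and their sum was 221 to 362 FPKM in R6/2 and 1668 to 2117 FPKM in control libraries. In bulk tissue, fewer cells of a type and less RNA per cell cannot be told apart. The libraries also differed in a signal of cortical excitatory neurons (mean of 9 marker genes, centred over the 10 libraries, log2 scale). It was 0.06, 0.39, 0.68, -0.11 and 0.10 in R6/2 1 to 5, against -0.51, 0.02, -0.56, 0.01 and -0.07 in Control 1 to 5. R6/2 2 and R6/2 3 were thus highest and Control 1 and Control 3 lowest. Marker lists not taken up gene by gene further on are given here. Of the genes fitted, 4 of 6 interneuron, 1 of 5 microglial and 2 of 5 blood cell genes were called lower. Of 4 thalamic genes 1 was called higher, and no gene of oligodendrocyte precursors, mural cells or ependyma was called. Only 2 of 4 ependymal genes were fitted. The mean log2 level differed by -0.46 for the ependymal list and -0.82 for the blood cell list. Both had an adjusted p of 0.0295 (exact permutation test over samples, two-sided), which reached 0.0645 and 0.0802 in other settings. The same adjusted p was 0.124 for oligodendrocyte precursors, 0.469 for mural cells and 0.984 for thalamic neurons.

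The catalytic and the related members differ at the zinc site, which the coding sequence shows. The stretch shown encodes the segment with the first pair of zinc-binding histidines of Car2 (positions 94 and 96 of its protein, counted from the initiator methionine), and the capitals mark those codons and the codons aligned with them. CAC and CAT are the histidine codons. Sequences are from the GENCODE M21 transcripts (GRCm38), in sense orientation, 5′ to 3′.
Car2, chr3:14895060-14895086, plus strand: atccagtttCACtttCACtggggctca
Car12, chr9:66747638-66747664, plus strand: gagcagctgCACttgCACtgggggaac
Car4, chr11:84964158-84964184, plus strand: gtacagttgCACctgCACtggtcaaat
Car8, chr4:8221604-8221630, minus strand: tatgaagttAGAtttCACtggggaaga
Car10, chr11:93490597-93490623, plus strand: gaagaaatcCGGctaCACtttgggagt
Car11, chr7:45702539-45702565, plus strand: agtgaactgCGCctgCTAtttggagct

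Car2, Car12 and Car4 have a histidine codon at both places, Car8 and Car10 at 1, and Car11 at 0. With the third zinc-binding position (position 119 of Car2), all 7 catalytic members kept 3 of 3 histidines. Car8 kept 2, Car10 kept 1 and Car11 kept 0. Identity with the Car2 protein over aligned residues was 56.5% for Car13, 55.0% for Car7, 51.5% for Car5b, 43.3% for Car8, 37.5% for Car12, 37.2% for Car14 and 33.3% for Car4, Car10 and Car11. Car10 and Car11 were 56.7% identical to each other, each with 328 residues.

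Transcripts of 3 members, Car12, Car11 and Car2, were lower in R6/2 striatum, and no member was called higher. Car11 was at 29.8% and Car2 at 61.8% of the control mean, and the control mean of Car12 was 6.68 times its R6/2 mean. The groups did not overlap for these 3 and overlapped for the other 7. Genes averaging 1 FPKM or more across all 10 libraries were fitted with limma on log2(FPKM + 1), a scale that understates the change of low genes. A gene was called at a Benjamini-Hochberg adjusted p under 0.05 over all 15905 genes fitted. Of the 10 members 9 were fitted, and Car13 was below the minimum. Over all genes fitted, 14.1% were called in either direction, 9.11% were called lower and 13.1% had groups that did not overlap. The median log2 change was -0.13 over the 9 members and 0.00 over all genes fitted. Since this contrast chose the family, nothing is read from these shares.

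**Figure D1:**
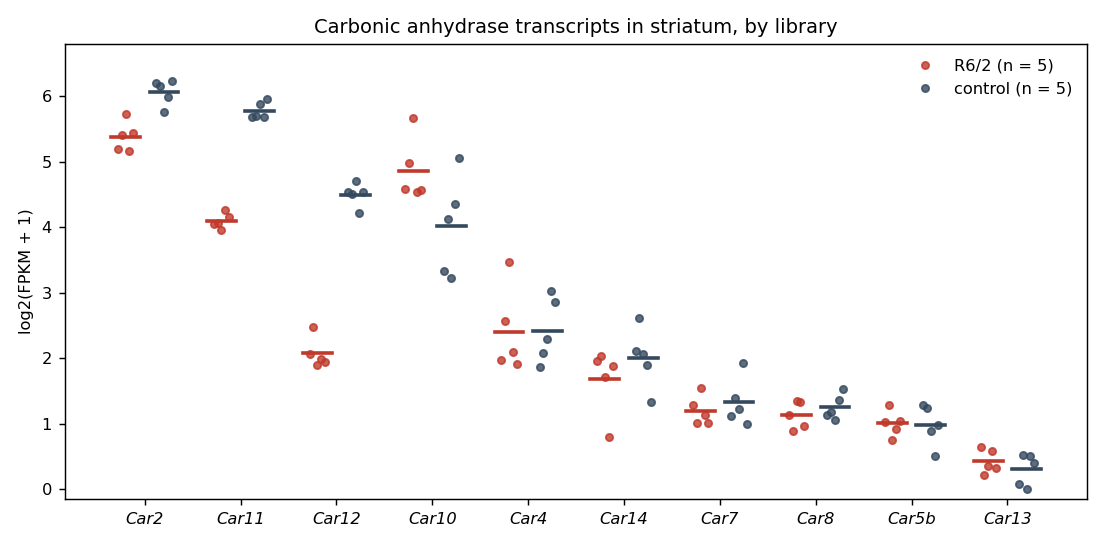
Level of each of the 10 carbonic anhydrase genes as log2(FPKM + 1), with 1 point per library, 5 R6/2 (red, left) and 5 control (dark, right), and a bar at the group mean. Genes are ordered by their control mean, and Car2, Car11 and Car12 are the genes whose groups do not overlap.

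In control striatum the order of the levels was led by Car2 at 66.7 ± 8.78 FPKM (SD, n = 5), which was above Car11 in 4 of 5 libraries. Car11 followed at 54.2 ± 5.08 FPKM and was above Car12 in 5 of 5 libraries with no overlap. Car12 (21.8 ± 2.63 FPKM) and Car10 (17.1 ± 9.71 FPKM) overlapped, with Car12 above in 3 of 5. Below a gap without overlap came Car4, Car14, Car7, Car8, Car5b and Car13, each of which overlapped the next. In R6/2 striatum the order was Car2, Car10, Car11, Car4, Car12, Car14, Car7, Car8, Car5b and Car13. Car10 was above Car11 in 5 of 5 R6/2 libraries without overlap, whereas in control libraries Car11 was the higher of the pair in each one.

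Summed over the 10 members, the level was 101 ± 20.5 FPKM in R6/2 and 172 ± 18.2 FPKM in control libraries (SD, n = 5). Within the 3 related members, Car11 made up 22.0 to 43.5% of the sum in R6/2 and 64.2 to 86.0% in control libraries. Car10 made up 52.9 to 75.7% in R6/2 and 12.4 to 33.8% in control libraries, so that neither pair of ranges overlapped. Both shares are of a sum that contains Car11, whose fall chose the family. Their separation therefore follows in part from that choice, as do the lower sum of the 10 members and the order of Car10 and Car11. The levels of Car10 itself overlapped between the groups. Within the 7 catalytic members, Car2 made up 76.1 ± 3.00% in R6/2 and 67.1 ± 3.74% in control libraries, and Car12 6.14 ± 1.58% in R6/2 and 22.1 ± 3.71% in control libraries.

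**Figure D2:**
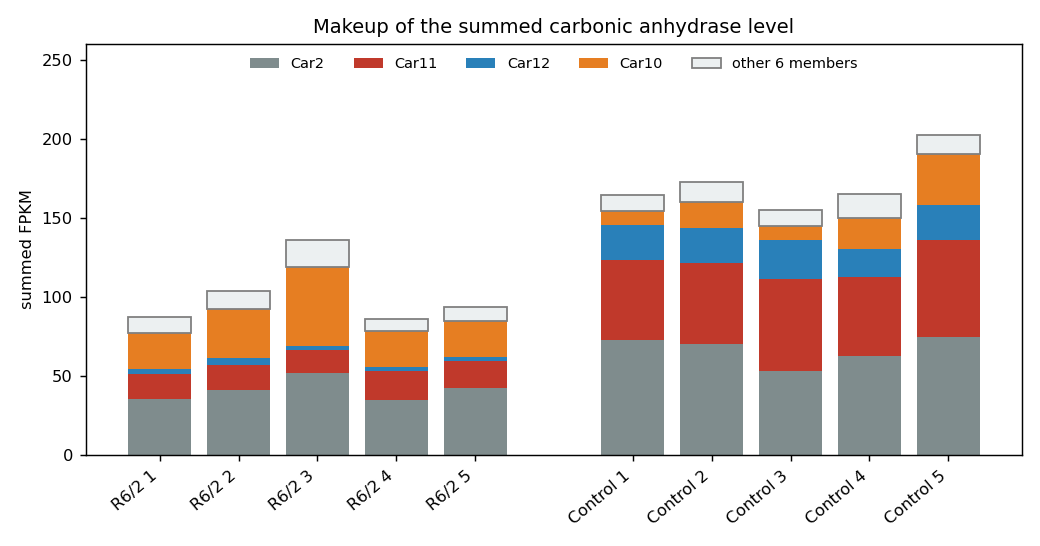
Summed FPKM of the 10 carbonic anhydrase genes in each library, R6/2 left and control right, stacked by gene. The sum is 86.3 to 136 FPKM in R6/2 and 155 to 202 FPKM in control libraries, with a thinner Car11 and Car12 segment in every R6/2 library.

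Among the membrane-bound enzymes, Car12, which spans the plasma membrane with its catalytic domain outside the cell, had the steepest change. It was at 3.20, 4.57, 2.72, 2.95 and 2.84 FPKM in R6/2 1 to 5, against 22.2, 21.7, 25.0, 17.7 and 22.3 FPKM in Control 1 to 5. Every R6/2 value was below every control value, and R6/2 2 stood above the other R6/2 libraries. The log2 change was -2.43 (SE 0.129), which is place 125 when the 15905 genes are ordered from the lowest change. It was -2.37 after adjustment for the cortical signal and -2.43 in the 6 libraries with a like cortical signal (R6/2 1, 4 and 5 with Control 2, 4 and 5), and the gene stayed called in both. Car12 lies on chromosome 9 (GRCm38, 66713686 to 66766845, plus strand), and no annotated exon of another gene overlaps it.

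Car4 and Car14 are the other membrane enzymes. Car4, which is held on the outer membrane by a lipid anchor and lines brain capillaries, was at 2.94, 4.94, 10.1, 3.26 and 2.75 FPKM in R6/2 1 to 5, against 2.64, 3.21, 3.90, 7.12 and 6.22 FPKM in Control 1 to 5. The groups overlapped, with R6/2 3 above every control, and R6/2 3, the library with the highest cortical signal, was also the highest for Car4. In the controls the orders differed. Control 2, with the highest signal of the controls (0.02), was below Control 3, with the lowest (-0.56). Control 4, next to Control 2 in signal (0.01), was the highest control for Car4. The part of cortical RNA in the Car4 values was not tested. The log2 change of Car4 was -0.02 (SE 0.337) over the 10 libraries, with a sign that turned under other scalings. It was -0.67 (SE 0.302) after adjustment for the cortical signal and -0.66 (SE 0.283) in the 6 libraries with a like signal, and was not called in any of these fits. Of 6 endothelial markers fitted none was called. The sum of all 7 listed was 33.0 to 37.8 FPKM in R6/2 and 33.2 to 41.0 FPKM in control libraries. The mean log2 level of the 7 differed by -0.17 (exact permutation test over samples, two-sided, p = 0.0397, and 0.0645 adjusted over the marker lists).

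Car14, a transmembrane enzyme, was at 2.87, 3.10, 2.29, 0.740 and 2.68 FPKM in R6/2 1 to 5, against 3.31, 5.14, 3.17, 2.73 and 1.52 FPKM in Control 1 to 5. The groups overlapped, and the log2 change was -0.33 (SE 0.286). The choroid plexus, the epithelium that makes cerebrospinal fluid, is known to use carbonic anhydrases, and its markers varied widely between libraries. The mean log2 level of 8 choroid plexus markers was 2.57, 3.40, 2.90, 1.64 and 2.87 in R6/2 1 to 5, against 2.80, 3.88, 2.31, 2.24 and 1.62 in Control 1 to 5. In both groups Car14 was highest and lowest in the libraries where these markers were highest and lowest, and in the controls the whole order was the same. The part of choroid plexus RNA in the Car14 values was not tested. The marker sum was 80.8 to 638 FPKM in R6/2 and 92.6 to 793 FPKM in control libraries, and 2 of the 8 markers were at 0 in at least 1 library. An exon of Car14 (chromosome 3, 95897768 to 95904691, minus strand) overlaps one of Aph1a, a gamma-secretase subunit gene on the plus strand. Aph1a was at 1.84 ± 0.341 FPKM in R6/2 and 1.74 ± 0.606 FPKM in control libraries. The sources used here do not give the strand setting of the counting, so reads in the overlap cannot be assigned with certainty.

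Car2, the fast cytosolic enzyme that in brain is known above all from oligodendrocytes, was at 35.5, 41.4, 51.9, 34.8 and 42.6 FPKM in R6/2 1 to 5, against 72.7, 70.5, 53.3, 62.4 and 74.5 FPKM in Control 1 to 5. The groups did not overlap, but the highest R6/2 library (R6/2 3) came close to the lowest control (Control 3). The log2 change was -0.68 (SE 0.131). It was -0.90 after adjustment for the cortical signal and -0.86 in the 6 libraries with a like signal, called in both. Of 10 myelin markers 7 were called lower, among them Ugt8a (log2 change -1.09), Mobp (-1.05) and Mbp (-0.96), named here after their values were seen. Their sum was 731 to 1124 FPKM in R6/2 and 1563 to 1761 FPKM in control libraries, with none at 0, and their mean log2 level differed by -0.76 (exact permutation test over samples, two-sided, p = 0.00794, the smallest that 5 against 5 allows, and 0.0206 adjusted over 13 marker lists). Of 8 astrocyte markers 3 were called lower and none higher, with a sum of 419 to 514 FPKM in R6/2 and 709 to 770 FPKM in control libraries. Their mean log2 level differed by -0.44, with the same exact and adjusted p as the myelin list, as did the lists of spiny projection neurons (-2.34), interneurons (-0.75) and microglia (-0.26). For the microglia list the adjusted p of the exact permutation test reached 0.0774 in other settings. The parts of oligodendrocyte and astrocyte RNA in the change of Car2 were not tested.

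The other cytosolic and mitochondrial enzymes were at low levels. Car7, a cytosolic enzyme of neurons known to supply bicarbonate for current through GABA-A receptors, was at 1.43, 1.02, 1.92, 1.19 and 1.01 FPKM in R6/2 1 to 5, against 1.17, 1.61, 1.33, 2.78 and 0.998 FPKM in Control 1 to 5. The groups overlapped, with a log2 change of -0.13 (SE 0.204). Car5b, a mitochondrial enzyme, was at 0.688 to 1.43 FPKM in R6/2 and 0.412 to 1.43 FPKM in control libraries, with a log2 change of 0.03 (SE 0.203). For Car13, another cytosolic enzyme, the steps of the values correspond to 14, 2, 5, 8 and 4 fragments in R6/2 1 to 5, against 1, 7, 0, 6 and 4 fragments in Control 1 to 5, if the smallest step is 1 fragment. Each value lay within 0.02 of a whole number of steps. Its level was 0.350 ± 0.171 FPKM in R6/2 and 0.246 ± 0.205 FPKM in control libraries, and a difference was not tested.

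Of the carbonic anhydrase-related genes, Car11 showed narrow groups far apart. It was at 15.6, 15.7, 14.5, 18.2 and 16.9 FPKM in R6/2 1 to 5, against 50.6, 51.2, 57.9, 50.2 and 61.3 FPKM in Control 1 to 5. The highest R6/2 library was well below the lowest control. The log2 change was -1.68 (SE 0.0864), place 328 from the lowest of the 15905 genes, and ranged from -1.73 to -1.64 when each library was left out in turn. It was -1.59 after adjustment for the cortical signal and -1.62 in the 6 libraries with a like signal, called in both. These refits use the libraries whose Car11 values chose the family, and are a description only.

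Car11 lies on chromosome 7 (GRCm38, 45699843 to 45704682, plus strand) in a dense stretch, and no exon of another gene overlaps it. Dbp, the gene of a circadian PAR-domain transcription factor, starts 406 bases beyond its end on the same strand. Dbp fell to 0.955, 1.51, 1.23, 1.90 and 0.528 FPKM in R6/2 1 to 5, against 3.88, 7.21, 5.96, 3.86 and 4.60 FPKM in Control 1 to 5. Its groups did not overlap (log2 change -1.46, SE 0.210, limma adjusted p = 0.00144, and 0.0844 in the 6 libraries with a like cortical signal). At pseudocounts of 0.1 and 5 FPKM the change was -2.04 and -0.69. Time of day of sampling did not enter the fit, and its part in the Dbp values was not tested. Sphk2, a sphingosine kinase gene 4785 bases away on the other strand, was at 7.82 ± 1.04 FPKM in R6/2 and 7.04 ± 0.258 FPKM in control libraries (log2 change 0.12, limma adjusted p = 0.432). Sec1 and Ntn5, on the other side of Car11, averaged under 0.2 FPKM in both groups and were not fitted.

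By Pearson's r with Car11 over the 10 libraries, among the 7175 protein-coding genes averaging 5 FPKM or more, the 5 most alike were the dopamine receptor gene Drd2 (0.995), the anoctamin gene Ano3 (0.994), the chondroitin sulfotransferase gene Chst11 (0.993), the complexin gene Cplx2 (0.993) and the calmodulin regulator gene Pcp4 (0.992). Car12 came at place 19 (0.984). These values mainly follow the step between the groups. Drd2 was at 29.2 ± 4.19 FPKM in R6/2 and 164 ± 16.4 FPKM in control libraries. After the group means were subtracted, the 5 most alike were other genes, Ndor1 (0.969), Fyco1 (0.921), Trappc8 (0.920), 5730480H06Rik (0.915) and Khsrp (0.911), and the r of Car12 was 0.20 and that of Car2 -0.40. The 5 are the highest of 7175 genes over 10 libraries, and whether chance alone gives such values was not tested.

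Car10, the closest relative of Car11 among the members, was at 23.0, 30.5, 49.9, 22.2 and 22.7 FPKM in R6/2 1 to 5, against 9.07, 16.5, 8.34, 19.5 and 32.3 FPKM in Control 1 to 5. The groups overlapped through Control 5. The log2 change of 0.85 (SE 0.368) was not called. It was 1.11 without Control 5, which also stayed uncalled. Within R6/2, Car10 was highest in R6/2 3 and R6/2 2, which also had the highest cortical signal. It was lowest in Control 3 and Control 1, which had the lowest signal, but Control 5, with a signal of -0.07, had the second highest Car10 level of the 10 libraries. The log2 change was 0.04 (SE 0.267) after adjustment for the cortical signal, and 0.05 (SE 0.251) in the 6 libraries with a like signal. Since the signal was on average higher in R6/2, the adjusted fit cannot fully tell group and signal apart. The part of cortical RNA in the Car10 values was not tested. Of the 8 cortical markers fitted, 2 were called higher, among them Neurod2 (log2 change 1.23), and Lamp5 (-0.97) was called lower. The sum of the 9 markers was 78.7 to 147 FPKM in R6/2 and 65.5 to 98.9 FPKM in control libraries, and 1 of them was at 0 in some library.

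**Figure D3:**
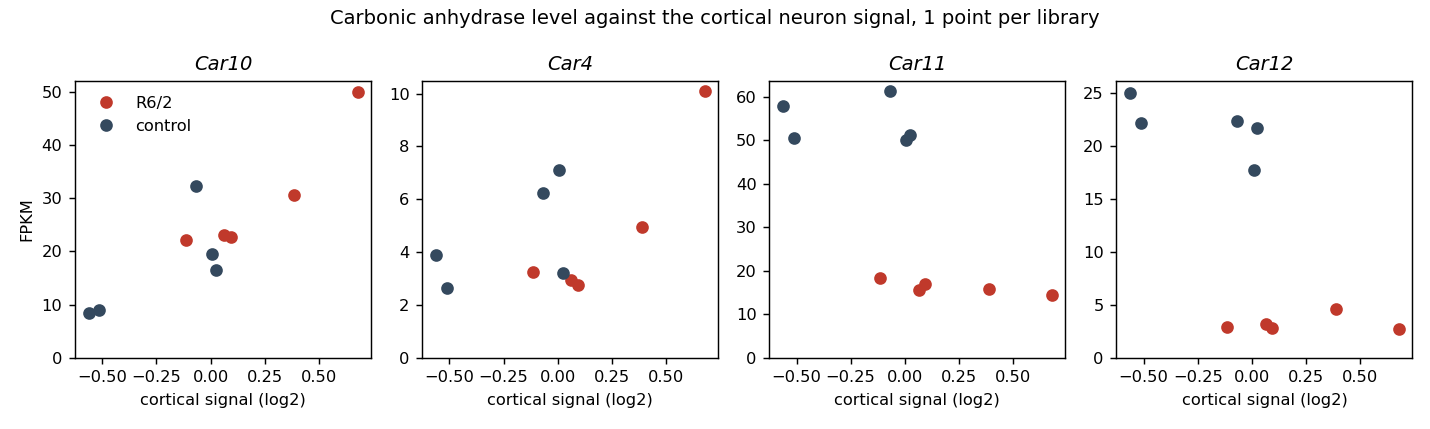
FPKM of Car10, Car4, Car11 and Car12 against the cortical neuron signal (centred mean log2 level of 9 marker genes), with 1 point per library, R6/2 in red and control dark. Car10 is 8.34 and 9.07 FPKM at the lowest signals and 49.9 FPKM at the highest, while Car11 and Car12 are lower in every R6/2 library than in every control. Signals of 0.39 and 0.68 occur only in R6/2 and signals of -0.51 and -0.56 only in control libraries.

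Car8, the partner of the inositol trisphosphate receptor, was at 1.18, 0.841, 1.54, 1.52 and 0.941 FPKM in R6/2 1 to 5, against 1.19, 1.26, 1.07, 1.57 and 1.90 FPKM in Control 1 to 5. The groups overlapped, and the log2 change was -0.12 (SE 0.165).

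**Figure D4:**
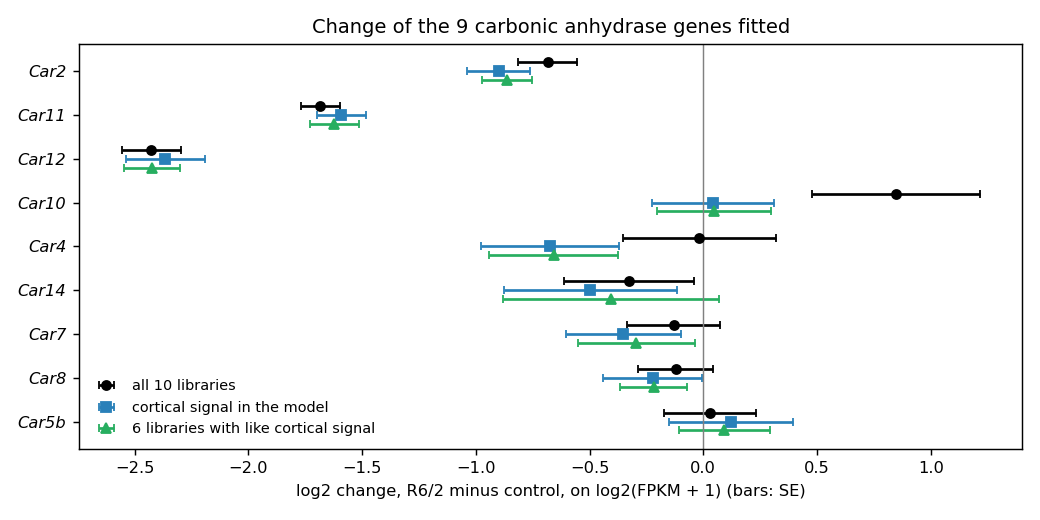
log2 change (R6/2 minus control, on log2(FPKM + 1), bars SE) of the 9 fitted carbonic anhydrase genes in all 10 libraries (circles), adjusted for the cortical signal (squares) and in the 6 libraries with a like cortical signal (triangles). Car12, Car11 and Car2 are below 0 in all 3 fits, and Car10 is at 0.85, 0.04 and 0.05.

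The remaining carbonic anhydrase genes of the table were low. Car15, a membrane enzyme, was the only one of the 6 to be fitted. It was at 0.839, 2.26, 0.425 and 1.37 FPKM in R6/2 1 to 4 and listed near 0 in R6/2 5, against 1.51, 1.41, 3.31, 4.12 and 1.31 FPKM in Control 1 to 5 (log2 change -0.79, SE 0.36, limma adjusted p = 0.194). An exon of Gm20518 overlaps it. The hypoxia-induced enzyme gene Car9 was at 0.18 to 0.632 FPKM in R6/2 libraries, and reached 1.90 FPKM in Control 2 while it was listed near 0 in Control 5. It averaged less than 1 FPKM and was not fitted. Car1, Car3, Car5a and Car6 were below 0.6 FPKM in every library.

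Binding partners of the related members were measured with the same fit. They did not enter the choice of the family, but their lists were drawn up with earlier results of these data known. Itpr1, the main inositol trisphosphate receptor of neurons and the known partner of Car8, fell to 49.3, 56.7, 45.9, 43.7 and 34.5 FPKM in R6/2 1 to 5, against 147, 136, 168, 122 and 109 FPKM in Control 1 to 5. Every R6/2 value was below every control value (log2 change -1.55, SE 0.149, adjusted p = 0.000155 by limma). Itpr2 was at 5.67 ± 1.94 FPKM in R6/2 and 5.28 ± 1.13 FPKM in control libraries (limma adjusted p = 0.881). Among the neurexins, Nrxn3 fell to 119 ± 10.8 FPKM in R6/2, against 148 ± 6.93 FPKM in control libraries (log2 change -0.32, limma adjusted p = 0.0214). Its adjusted p was 0.129 after quantile normalization, 0.114 after rescaling to protein-coding totals and 0.221 after adjustment for the cortical signal. Nrxn2 was at 1.89 ± 0.621 FPKM in R6/2 and 1.20 ± 0.380 FPKM in control libraries (limma adjusted p = 0.259). The receptor phosphatases Ptprg and Ptprz1, which carry a carbonic anhydrase-like domain outside the cell, were not called (log2 changes -0.15 and -0.25, limma adjusted p = 0.643 and 0.0582).

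Of 62 listed partner, transport and sensing genes around the carbonic anhydrases 47 were fitted, of which 7 were called lower and 4 higher (median log2 change 0.06). Over all genes fitted, 795 were called higher and 1449 lower. That split depends on scaling: 64.6% of calls were lower as deposited, 53.5% after quantile normalization and 42.7% after rescaling to protein-coding totals. Of 7 bicarbonate transporters fitted, 1 fell and none rose. It was Slc4a4, the electrogenic sodium bicarbonate cotransporter known from astrocytes, at 23.7, 21.6, 18.2, 32.6 and 23.0 FPKM in R6/2 1 to 5, against 83.3, 54.2, 53.0, 59.8 and 59.9 FPKM in Control 1 to 5. The groups did not overlap (log2 change -1.35, SE 0.165, limma adjusted p = 0.000575). Slc4a10, a neuronal sodium-driven bicarbonate transporter, was at 74.9 ± 7.77 FPKM in R6/2 and 63.5 ± 15.7 FPKM in control libraries (limma adjusted p = 0.337). Slc4a2 and Slc4a8 had log2 changes of -0.54 and 0.29 (limma adjusted p = 0.131 and 0.248).

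Of 7 sodium-proton exchanger genes fitted, 1 fell. Slc9a5 was at 1.03 ± 0.199 FPKM in R6/2 and 2.88 ± 0.618 FPKM in control libraries (log2 change -0.92, SE 0.143, limma adjusted p = 0.00223), lower in 5 of 5. The size of this change depends on the pseudocount, with -1.39 at 0.1 FPKM and -0.38 at 5 FPKM. Of 5 acid-sensing genes fitted, the channel genes Asic1 (log2 change -0.68, limma adjusted p = 0.00674) and Asic4 (-0.69, limma adjusted p = 0.0356) fell. After adjustment for the cortical signal their limma adjusted p was 0.0933 and 0.263. Asic4 also missed the threshold after rescaling to protein-coding totals (0.0504) and without R6/2 2, and its change was -1.29 at a pseudocount of 0.1 FPKM and -0.24 at 5 FPKM.

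Calls in the other direction came from the vacuolar proton pump and a transporter partner. Of 13 pump subunit genes 3 were called higher and 1 lower. Atp6v1a, the catalytic subunit, rose to 667 ± 89.2 FPKM in R6/2, against 366 ± 92.4 FPKM in control libraries (log2 change 0.90, SE 0.200, limma adjusted p = 0.0153, and 0.181 after adjustment for the cortical signal). Atp6v1b2 (log2 change 0.36, limma adjusted p = 0.022) and Atp6v1f (0.53, 0.0345) rose as well. After adjustment for the cortical signal their limma adjusted p was 0.205 and 0.179, and Atp6v1f also missed the threshold when any of 6 single libraries was left out. Atp6v0a2, named after its value was seen, was called lower (-0.36, limma adjusted p = 0.0405) with overlapping groups. It was called in 3 of 10 fits with 1 library left out, and not without the filter, after quantile normalization, after rescaling, with the replicate block or after adjustment for the cortical signal. Emb, which encodes the membrane partner embigin of monocarboxylate transporters, rose to 8.60 ± 1.90 FPKM in R6/2, against 4.66 ± 0.798 FPKM in control libraries (log2 change 0.75, limma adjusted p = 0.00827, and 0.103 after adjustment for the cortical signal, with a change of 0.49 at a pseudocount of 5 FPKM). Slc16a1 and Slc16a7, transporters of lactate, were not called (limma adjusted p = 0.338 and 0.834). None of the 4 cation-chloride cotransporters fitted was called. Slc12a5, the neuronal chloride extruder KCC2, was at 138 ± 17.2 FPKM in R6/2 and 153 ± 4.94 FPKM in control libraries (log2 change -0.16, limma adjusted p = 0.277).

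**Figure D5:**
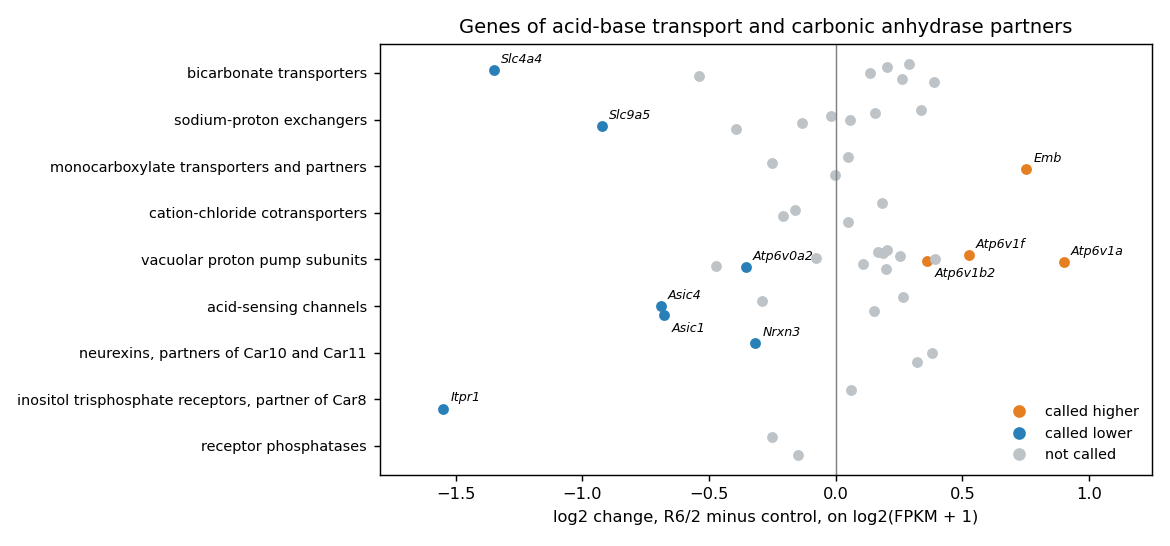
log2 change (R6/2 minus control, on log2(FPKM + 1)) of the 47 fitted partner, transport and sensing genes, 1 point per gene by list, in orange where called higher and in blue where called lower. The 4 genes called higher are Atp6v1a, Emb, Atp6v1f and Atp6v1b2, and Itpr1 and Slc4a4 are farthest below 0.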

How the data were processed

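The authors deposited FPKM values, 1 column per library and 47632 gene rows. The submitters' processing notes list the tools Cuffdiff, Cufflinks and STAR (version 2.4.0) and the build GRCm38. The sources used here do not give their roles, the annotation release, the strand setting or the scaling. Per the labels' protocols, RNA was amplified with the NuGEN Ovation system before Nextera libraries. Columns were tied to samples by name, and genes to GENCODE M21 by stable Ensembl ID. Relative depth came from genes above 0 in exactly 2 libraries. The median share of such genes on 1 common ratio was 50.0% (tolerance 0.02 in log2).

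Genes averaging 1 FPKM or more were fitted with limma 3.58.1 (R 4.3.3, empirical Bayes with trend) on log2(FPKM + 1), R6/2 minus control, with Benjamini-Hochberg adjustment over 15905 genes. The model was checked on simulated data. Marker lists were compared by exact permutation over samples. Proteins translated from GENCODE coding sequences (longest per gene) were aligned globally with Biopython 1.88. Members, lists and tests were chosen with earlier results of these data known. Genes named are all carbonic anhydrases, up to 3 fitted genes per pathway list with the smallest p, fixed partner genes, neighbours within 10 kb of Car11, genes whose exons overlap a member, and the 5 genes most like Car11 by each measure. The 6 libraries with a like cortical signal were chosen after the data were seen.

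Alternatives were other pseudocounts and filters, quantile normalization, rescaling to protein-coding totals, a replicate block, no trend, the cortical signal as covariate, and each library left out in turn. Some genes that these rules name are not reported here.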

Additional observations from a re-analysis of the deposited data

Results flagged for a closer look

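A few libraries stood far from the other 4 of their group in the 68 gene-by-group sets examined, for which chance alone flags about 1 set in 20. Among the members only Car12 was affected: R6/2 2 had 4.57 FPKM where the other R6/2 libraries had 2.72 to 3.20. R6/2 2 also had the highest choroid plexus marker mean of the R6/2 libraries (3.40). R6/2 3, next highest in that mean (2.90), had the lowest Car12 level (2.72 FPKM). Control 2 had the highest mean of all libraries (3.88), with Car12 at 21.7 FPKM, inside the range of the other controls. The part of choroid plexus RNA in the Car12 values was not tested, and without R6/2 2 the log2 change of Car12 was -2.53. Slc16a1 was lowest in R6/2 2 (1.09 FPKM). Slc4a4 was highest in Control 1 (83.3 FPKM), and Ptprz1 highest in Control 5 (42.6 FPKM).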

How the results depend on the processing

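Car11, Car12 and Car2 were called lower in every setting tried, except that Car2 missed the threshold with the replicate number as a block (log2 change -0.68), where 2 members were called. The other 6 members fitted were not called in any setting. Since the fall of Car11 in these libraries chose the family, the member calls in other settings are a description and no independent support. Leaving out each library in turn gave log2 changes of -1.73 to -1.64 for Car11, -2.53 to -2.38 for Car12 and -0.77 to -0.63 for Car2. The block rests on numbers that libraries share by name: deviations of same-numbered R6/2 and control libraries correlated at -0.0528 to 0.0495, so the numbers were not treated as pairs. Of the 11 partner and transport genes called, 3 were called with the replicate block, 3 with the cortical signal as covariate and 3 in the 6 libraries with a like cortical signal, chosen after the data were seen. Itpr1 and Slc4a4 were called in all 3 of these fits. Over all genes, those called higher numbered 795, but 1522 after rescaling to protein-coding totals, 370 with the block, 225 with the covariate and 106 in the 6 libraries, and 576 to 890 when 1 library was left out (576 without Control 3 and 890 without Control 5). Those called lower numbered 1449, but 700 with the covariate and 457 in the 6 libraries, and 1193 to 1518 when 1 library was left out. The 6-library fit also has fewer samples. Signs turned only for small changes. Car4 was at 0.00153 with a pseudocount of 5 FPKM, 0.00894 after quantile normalization and 0.0745 after rescaling. Slc16a7 was at -0.0853 with the covariate and -0.105 in the 6 libraries. The marker mean of thalamic neuron genes (-0.00243, pseudocount 5 FPKM) and the marker mean of mural cell genes (0.0226, rescaling) turned likewise. Leaving out 1 library gave ranges across 0 for Car4 (-0.284 to 0.133), Car5b (-0.0912 to 0.104), Car7 (-0.218 to 0.017), Itpr2 (-0.0919 to 0.151), Slc16a7 (-0.0171 to 0.108), Aph1a (-0.00158 to 0.183), and the marker means of thalamic neurons (-0.125 to 0.123) and choroid plexus (-0.133 to 0.433). The cause of these shifts was not tested. Members near 1 FPKM rest on few fragments, and the absolute depth is unknown.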
